A study of Mus musculus with 28 samples.

Results

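APOE3S/S microglia given amyloid were compared with APOE3 microglia given amyloid, gene by gene, in mouse. APOE3S/S is the genotype labelled Christchurch, a variant of human APOE3 that changes the part of the protein that binds heparan sulfate, and the genotype labelled WT carries APOE3. The comparison was chosen by the library names and holds 6 of the 28 libraries of the series: the libraries labelled APOE3S/S amyloid 7, 8 and 9 and the libraries labelled APOE3 amyloid 7, 8 and 9. Untreated cells of the same library name series came with them in 1 count table, namely APOE3S/S untreated 2 and 3 and APOE3 untreated 1, 2 and 3, and these 11 libraries made up the main fit. All cells were primary mouse microglia, and the groups differ by genotype and by treatment. The untreated cells are labelled Control, which does not say whether they received a vehicle. The form, dose and duration of the amyloid, the age of the mice and the design of the APOE allele are not stated by the labels. Nor do the labels say whether the numbered libraries are separate mice or cultures, so every p-value measures the spread between these libraries, which may be technical.

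Apolipoprotein E carries lipid between brain cells and binds both amyloid and the receptors that take it up, and the Christchurch variant is known for weak binding to heparan sulfate. Microglia are the resident macrophages of the brain. They take up aggregated amyloid, and they answer foreign or misplaced nucleic acid through sensors such as cGAS and STING, which induce type I interferon. Interferon acts through its receptor and a complex of transcription factors that includes STAT2 and IRF9 on the interferon-stimulated response element (ISRE), a short DNA motif in the promoters of antiviral genes. NF-kB is a separate route to cytokine and chemokine genes, and the SREBP factors drive the genes of cholesterol and fatty acid synthesis.

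Libraries were made from the 3′ ends of mRNA, and the 11 libraries held 14463657 to 18682370 counts and 17966 to 19577 genes with a count. The 6 amyloid libraries held 15537686 to 18682370 counts. Levels are given in counts per 1000000 (CPM), scaled so that libraries are comparable, and in the order 7, 8 and 9 within each amyloid group. The defining markers of microglia were present in every amyloid library, with a summed level of 11727 to 15553 CPM over 15 markers in APOE3S/S amyloid libraries, against 12077 to 13056 CPM in APOE3 amyloid libraries. Markers of border-associated macrophages and monocytes summed to 4888 to 5447 CPM in APOE3S/S amyloid libraries, against 5051 to 5236 CPM in APOE3 amyloid libraries. Of 20 granulocyte and lymphocyte markers, 12 were at 0 in all 6 amyloid libraries, among them S100a9, Mpo, Cd3e and Cd8a. Endothelial markers summed to 112 to 138 CPM in APOE3S/S amyloid libraries, against 175 to 209 CPM in APOE3 amyloid libraries. Vwf alone made up 58.6 to 86.8 CPM of this in APOE3S/S, against 124 to 150.4 CPM in APOE3 amyloid libraries. The median log2 fold change over 5 tested endothelial markers was 0.00, and 2 were positive. In bulk libraries, fewer cells of a type and less RNA per cell cannot be told apart. The Apoe gene counted here is the mouse gene, and tags at the 3′ end of a transcript check nothing of a coding variant. Apoe had 18.9, 15.3 and 8.47 CPM in APOE3S/S amyloid libraries, against 14.8, 13.7 and 16.0 CPM in APOE3 amyloid libraries, and the groups overlapped.

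The library labelled APOE3S/S amyloid 9 stood apart from the other libraries of its label. The root mean square difference in log2 CPM over 14127 genes was 0.68 between it and APOE3S/S amyloid 7 and 0.53 between it and APOE3S/S amyloid 8. It was closer to the 3 APOE3 libraries given tau, at 0.43 to 0.47, and its nearest library of all was APOE3 tau 4. From the 3 APOE3S/S libraries given tau it lay 0.47 to 0.57. APOE3S/S amyloid 8 lay 0.49 to 0.57 from the APOE3 tau libraries and 0.49 to 0.56 from the APOE3S/S tau libraries. The 3 APOE3 amyloid libraries lay nearest to each other, at 0.43 to 0.46. Gm47283, an annotated gene on the Y chromosome (Y:90784738-90816464, GRCm38), separated the 8 APOE3S/S libraries from the 9 APOE3 libraries that lie outside the 11-library fit, namely the tau libraries and a second name series, with 10.5 to 29.6 CPM in APOE3S/S and 0.616 to 2.82 CPM in APOE3. Within the fit, untreated libraries had 16.8 and 16.6 CPM in APOE3S/S, against 2.17, 0.328 and 0.432 CPM in APOE3. Gm47283 had 13.2, 12.1 and 1.62 CPM in the libraries labelled APOE3S/S amyloid 7, 8 and 9, against 1.02, 2.01 and 1.05 CPM in the APOE3 amyloid libraries. By this gene, which was picked after the values were seen, the library labelled APOE3S/S amyloid 9 sat with the APOE3 libraries. Whether tags of this gene come from that place alone was not tested. Results are therefore given with and without it. APOE3S/S untreated 3 also stood apart: its nearest library was APOE3S/S amyloid 8, at 0.51, and it lay 0.70 from APOE3S/S untreated 2.

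**Figure D1:**
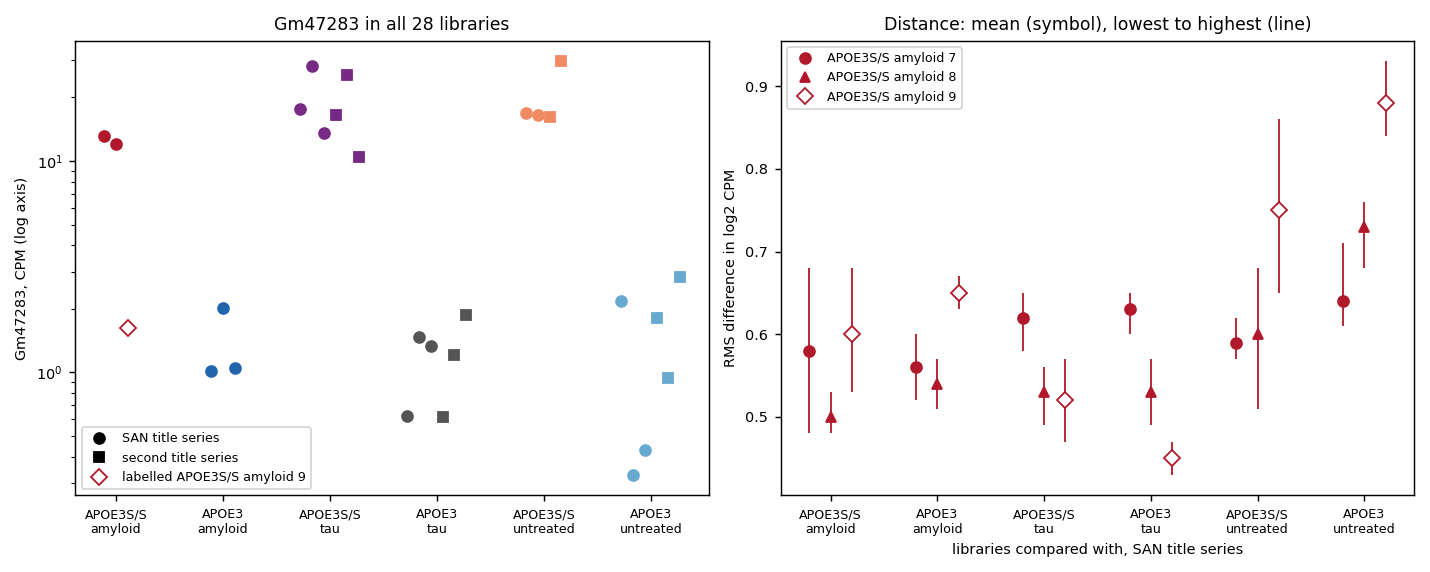
Left, CPM of Gm47283 (log axis) in each of the 28 libraries by group, with circles for the name series of the amyloid libraries and squares for the second name series. Right, root mean square difference in log2 CPM of APOE3S/S amyloid 7, 8 and 9 to the libraries of each group, as the mean with the lowest and highest. The library labelled APOE3S/S amyloid 9 sits at 1.62 CPM, among the APOE3 libraries, and is closest to the APOE3 tau group.

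The Y-linked genes Ddx3y and Kdm5d and the X-inactivation RNA Xist were counted in every amyloid library, so each held RNA of both sexes. Ddx3y had 48.8, 50.1 and 59.9 CPM in APOE3S/S amyloid libraries, against 70.1, 66.4 and 71.8 CPM in APOE3 amyloid libraries. Xist had 168, 281 and 198 CPM in APOE3S/S amyloid libraries, against 168, 167 and 206 CPM in APOE3 amyloid libraries. The part of this difference in the results below was not tested.

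With all 11 libraries in the fit, edgeR's quasi-likelihood test called 0 of 13863 genes (0.0%) at a Benjamini-Hochberg adjusted p below 0.05, and the smallest adjusted p was 0.30. At an unadjusted p below 0.05 there were 930 genes higher (6.71%) and 743 lower (5.36%) in APOE3S/S amyloid libraries. DESeq2 called 59 genes and limma-voom 0. Without the library labelled APOE3S/S amyloid 9, edgeR again called 0 genes, with 870 higher (6.32%) and 696 lower (5.05%) at an unadjusted p below 0.05. Without APOE3S/S untreated 2 it called 110 genes, and without APOE3S/S untreated 3 it called 111, although neither is an amyloid library. The spread that this fit shares over its groups included the distance between those 2 untreated libraries. Leaving out either also changed the number of genes tested, to 14602 and 14579, and the cause of the added calls was not tested.

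The 6 amyloid libraries fitted alone gave 352 calls among 12969 genes (2.71%), 232 higher (1.79%) and 120 lower (0.925%) in APOE3S/S, and 66 of them differed by more than 2-fold. That count rested on single libraries: it was 0 without any 1 of APOE3 amyloid 7, APOE3 amyloid 8, APOE3 amyloid 9 or APOE3S/S amyloid 8, 1009 without APOE3S/S amyloid 7 and 1577 without the library labelled APOE3S/S amyloid 9. DESeq2 called 1001 genes and limma-voom 314 from the same 6 libraries. The 5 libraries without the library labelled APOE3S/S amyloid 9, a fit added after the data were seen, gave 1577 calls among 13323 genes (11.8%), 892 higher (6.7%) and 685 lower (5.14%). All 352 genes of the 6-library fit were among these with the same sign, which makes them 22.3% of the longer list. The 5-library count was 384, 267 or 112 without APOE3 amyloid 7, 8 or 9, and 1290 or 2696 without APOE3S/S amyloid 7 or 8. Below, "called" refers to the fit that is named, and adjusted p-values are edgeR's in the 11-, 6- and 5-library fits in that order. Fold changes are log2 values from the 11-library fit with their standard errors unless another fit is named.

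The test of whether the genotype difference with amyloid differed from that in untreated cells called 0 genes, with a smallest adjusted p of 0.94 and 514 genes (3.71%) at an unadjusted p below 0.05. DESeq2 and limma-voom also called 0. Untreated APOE3S/S against untreated APOE3 cells gave 0 calls by edgeR, with 937 genes (6.76%) at an unadjusted p below 0.05, and 53 by DESeq2. Without APOE3S/S untreated 2 or 3, untreated APOE3S/S cells rested on 1 library, so calls from those fits are not given for these 2 comparisons.

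Interferon-stimulated genes were the list with the most calls. They were higher in APOE3S/S amyloid libraries by a median log2 fold change of 0.86, against 0.00 over all genes tested, and 65 of 66 tested members had a positive value. The values ran between -0.11 and 2.95. Of 65 members in the 6-library fit, 37 were called higher and 0 lower, where 1.79% of all genes were called higher. The 5-library fit called 50 of 65 higher and 0 lower, where 6.7% of all genes were called higher, and the median was 0.72 without the library labelled APOE3S/S amyloid 9. In 59 of the 66 every APOE3S/S amyloid library was above every APOE3 amyloid library, which held for 14.1% of all genes. In the 11-library fit 43 of 66 were higher at an unadjusted p below 0.05 and 0 were called.

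The element through which interferon acts was looked for in the promoters of these genes, and 5 promoters are shown because they belong to the list members with the smallest p-values whose upstream 200 bases hold it. Sequences are from RefSeq (GRCm38.p6), on the strand of the gene, and run up to the base before the start site. Capitals mark a match to the ISRE core on either strand. The windows are Igtp at chr11:58199356-58199555 (+), Ifi205 at chr1:174031756-174031955 (-), Isg15 at chr4:156200819-156201018 (-), Ifit1 at chr19:34640689-34640888 (+) and Phf11b at chr14:59341331-59341530 (-).
Igtp: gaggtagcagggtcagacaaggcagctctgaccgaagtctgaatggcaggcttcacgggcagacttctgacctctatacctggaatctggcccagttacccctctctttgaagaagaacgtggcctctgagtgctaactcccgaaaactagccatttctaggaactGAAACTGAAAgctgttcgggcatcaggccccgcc
Ifi205: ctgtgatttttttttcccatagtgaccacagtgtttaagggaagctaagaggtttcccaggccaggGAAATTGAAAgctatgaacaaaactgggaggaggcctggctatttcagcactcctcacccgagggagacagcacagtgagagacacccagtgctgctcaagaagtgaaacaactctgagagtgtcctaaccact
Isg15: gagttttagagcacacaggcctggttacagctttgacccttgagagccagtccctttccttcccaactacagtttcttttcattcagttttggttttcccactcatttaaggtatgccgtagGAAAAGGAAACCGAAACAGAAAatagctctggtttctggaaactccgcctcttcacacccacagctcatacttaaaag
Ifit1: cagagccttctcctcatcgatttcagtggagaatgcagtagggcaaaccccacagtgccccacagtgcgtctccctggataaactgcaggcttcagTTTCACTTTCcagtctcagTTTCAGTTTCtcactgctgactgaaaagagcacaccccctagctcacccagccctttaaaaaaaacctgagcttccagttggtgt
Phf11b: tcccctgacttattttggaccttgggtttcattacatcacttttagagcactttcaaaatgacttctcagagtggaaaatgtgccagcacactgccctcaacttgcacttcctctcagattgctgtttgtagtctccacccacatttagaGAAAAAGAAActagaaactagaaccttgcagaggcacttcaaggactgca
Isg15 holds 3 overlapping matches, and Ifit1 holds 2 matches on the opposite strand. A RefSeq promoter was found for 9941 of 13848 tested genes with a name of their own, and 264 of these (2.66%) held the ISRE core in the same window. Among interferon-stimulated genes it was in 22 of 49 (44.9%). A match is a description of the letters and not a measured binding site. The list was made of genes known to answer interferon, so its share describes the list and not the genotype difference.

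Isg15 encodes a ubiquitin-like protein that is attached to other proteins during antiviral defence. Isg15 (4:156199424-156200818) had 198, 315 and 387 CPM in APOE3S/S amyloid libraries, against 98.0, 105 and 91.3 CPM in APOE3 amyloid libraries, averaging 300.1 ± 95.5 in APOE3S/S and 98.1 ± 6.88 in APOE3 (SD, n = 3 each). The groups did not overlap, and the APOE3 libraries were close together while the APOE3S/S libraries spread over almost a doubling. Its fold change was 1.61 ± 0.56, with adjusted p = 0.39, 0.020 and 0.0047, and it was 1.39 without the library labelled APOE3S/S amyloid 9. Usp18 encodes the protease that removes ISG15 from proteins. Usp18 (6:121245906-121270917) had 129.7, 186 and 228 CPM in APOE3S/S amyloid libraries, against 73.6, 74.5 and 71.7 CPM in APOE3 amyloid libraries. The log2 fold change was 1.31 ± 0.41, with edgeR adjusted p = 0.38, 0.020 and 0.0047.

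Ifit1 encodes a protein that binds viral RNA lacking host cap methylation. Ifit1 (19:34640871-34650009) had 273, 436 and 512 CPM in APOE3S/S amyloid libraries, against 143, 157 and 135 CPM in APOE3 amyloid libraries. Every APOE3S/S library was above every APOE3 library, and the fold change was 1.49 ± 0.53, with edgeR adjusted p = 0.39, 0.020 and 0.0056. Rsad2, which encodes viperin, had 272, 558 and 621 CPM in APOE3S/S amyloid libraries, against 147, 159 and 153 CPM in APOE3 amyloid libraries. It was called in the 6- and 5-library fits (adjusted p = 0.030 and 0.0099). Igtp, a GTPase that acts on pathogen vacuoles, had 112, 166 and 160.1 CPM in APOE3S/S amyloid libraries, against 61.9, 71.7 and 55.9 CPM in APOE3 amyloid libraries. Ifi204, a DNA-binding protein of the PYHIN family, had 615, 733 and 596 CPM in APOE3S/S amyloid libraries, against 369, 352 and 340.3 CPM in APOE3 amyloid libraries, and the library labelled APOE3S/S amyloid 9 was here the lowest of its label. Igtp and Ifi204 were called in the 6-library fit (adjusted p = 0.020 for each).

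The transcription factors of the pathway differed in size. Irf7, the factor that amplifies interferon production (7:141262706-141266481), had 1037, 1367 and 1415 CPM in APOE3S/S amyloid libraries, against 581, 646 and 520.3 CPM in APOE3 amyloid libraries. Its fold change was 1.13 ± 0.47, with edgeR adjusted p = 0.40, 0.020 and 0.0047. Stat2 had 395, 599 and 668 CPM in APOE3S/S amyloid libraries, against 352, 375 and 351 CPM in APOE3 amyloid libraries, and was called in neither the 5- nor the 6-library fit (adjusted p = 0.067 and 0.10). Irf9 had 113, 119 and 119 CPM in APOE3S/S amyloid libraries, against 106, 104 and 103 CPM in APOE3 amyloid libraries. Irf8, a factor of macrophage identity, was the 1 tested member with a negative value, -0.11 ± 0.13, and it was 0.03 without the library labelled APOE3S/S amyloid 9.

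The secreted chemokines of the list had the widest values. Ccl12, a monocyte chemoattractant (11:82101845-82103400), had 12.9, 35.3 and 32.1 CPM in APOE3S/S amyloid libraries, against 3.49, 3.30 and 3.63 CPM in APOE3 amyloid libraries. Its fold change of 2.95 ± 0.76 was the highest of the list, with edgeR adjusted p = 0.38, 0.020 and 0.0056, and it was 2.80 without the library labelled APOE3S/S amyloid 9. Cxcl10, a T cell chemoattractant (5:92346638-92348889), had 16.9, 52.6 and 106 CPM in APOE3S/S amyloid libraries, against 11.9, 11.4 and 14.2 CPM in APOE3 amyloid libraries. The library labelled APOE3S/S amyloid 9 was the highest and APOE3S/S amyloid 7 was near the APOE3 libraries, and Cxcl10 was called in the 5-library fit alone (adjusted p = 0.39, 0.078 and 0.037). Oas2, which makes the second messenger of RNase L, overlapped between groups, with 144, 241 and 294 CPM in APOE3S/S amyloid libraries, against 159.9, 185 and 179 CPM in APOE3 amyloid libraries.

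**Figure D2:**
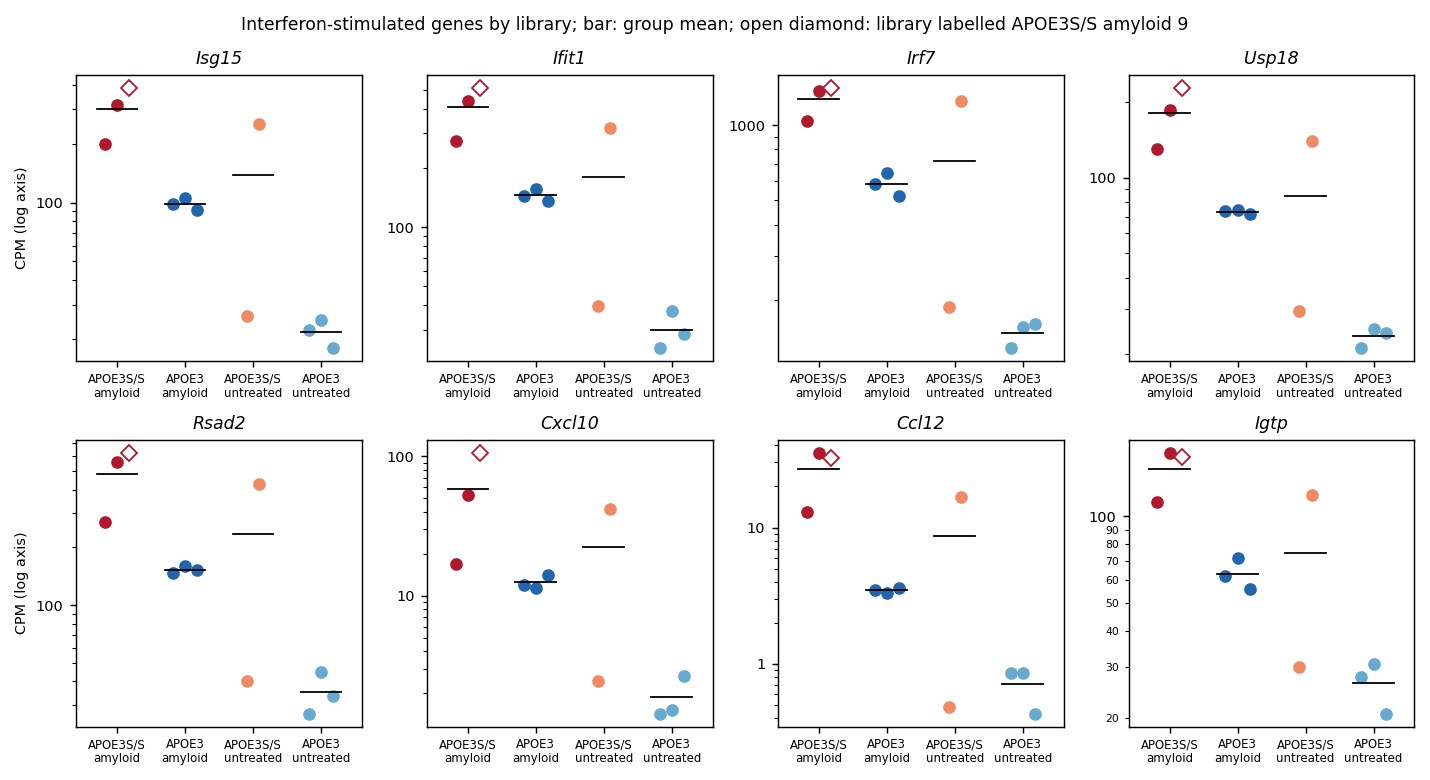
CPM (log axis) of 8 interferon-stimulated genes by library, in APOE3S/S amyloid, APOE3 amyloid, APOE3S/S untreated and APOE3 untreated groups. Points are libraries, bars are group means and the open diamond is the library labelled APOE3S/S amyloid 9. Isg15 is at 198 to 387 CPM in APOE3S/S amyloid libraries, against 91.3 to 105 CPM in APOE3 amyloid libraries, and APOE3S/S untreated 3 lies at 251 CPM beside 26.3 CPM in APOE3S/S untreated 2.

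The same genes were low in 4 of the 5 untreated libraries and high in APOE3S/S untreated 3. Isg15 had 26.3 and 251 CPM in APOE3S/S untreated 2 and 3, against 22.3, 25.2 and 18.0 CPM in APOE3 untreated libraries. Irf7 had 188 and 1251 CPM in APOE3S/S untreated 2 and 3, against 128, 155 and 159.9 CPM in APOE3 untreated libraries. The list's median in the untreated comparison was 1.42 with both APOE3S/S untreated libraries and 0.19 without APOE3S/S untreated 3. The median difference between the genotype effects with amyloid and untreated was -0.60, and no member was called in that test. Whether the genotype difference in interferon-stimulated genes was larger or smaller with amyloid therefore rested on 1 untreated library.

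Components of the cGAS-STING route itself were mostly not called. Of 26 in the 6-library fit, 3 were called higher (1.79% of all genes) and 0 lower: Usp18, Ifi204 and Zbp1, each of which is also induced by interferon. The 5-library fit called 6 of 26 higher and 2 lower (6.7% and 5.14% of all genes), and the median over the 27 members of the 11-library fit was 0.09, and 0.13 without the library labelled APOE3S/S amyloid 9. Mb21d1, the gene for the DNA sensor cGAS, had 22.2, 34.1 and 34.2 CPM in APOE3S/S amyloid libraries, against 22.9, 22.2 and 23.1 CPM in APOE3 amyloid libraries, and the groups overlapped. The log2 fold change was 0.41 ± 0.25, with edgeR adjusted p = 0.51, 0.20 and 0.22. Tmem173, the gene for the adaptor STING, had 68.0, 75.5 and 79.7 CPM in APOE3S/S amyloid libraries, against 60.3, 66.0 and 61.6 CPM in APOE3 amyloid libraries. Those groups did not overlap, but the gene was not called (adjusted p = 0.54, 0.15 and 0.14). Ifnb1, the interferon beta gene, stood at the edge of detection, with 0.471, 0.672 and 0.841 CPM in APOE3S/S amyloid libraries, against 0.215, 0.361 and 0.0616 CPM in APOE3 amyloid libraries. The receptor genes were level: Ifnar1 had 153, 159 and 162 CPM in APOE3S/S amyloid libraries, against 165, 151 and 159 CPM in APOE3 amyloid libraries. Nlrc3, described as an inhibitor of STING signalling, had 21.7, 22.4 and 12.1 CPM in APOE3S/S amyloid libraries, against 31.3, 27.9 and 31.9 CPM in APOE3 amyloid libraries, and was called lower in the 5-library fit (adjusted p = 0.12 and 0.020 in the 6- and 5-library fits).

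Genes of MHC class I presentation, which loads peptides for CD8 T cells and is itself induced by interferon, were higher as well. All 23 tested members had positive values, or 22 without the library labelled APOE3S/S amyloid 9, with a median of 0.56, and 0.44 without that library. In the 6-library fit 9 were called higher (1.79% of all genes) and 0 lower, and in the 5-library fit 18 were called higher (6.7% of all genes) and 0 lower. In 18 of 23 every APOE3S/S library was above every APOE3 library, which held for 14.1% of all genes. The list's median in the untreated comparison was 0.64, and -0.09 without APOE3S/S untreated 3. The median difference between the genotype effects with amyloid and untreated was 0.07. The immunoproteasome subunit Psmb8 had 233, 283 and 298 CPM in APOE3S/S amyloid libraries, against 162, 179.7 and 152 CPM in APOE3 amyloid libraries, a fold change of 0.72 ± 0.23 (adjusted p = 0.39, 0.028 and 0.0098). The peptide transporter subunit Tap1 had 329, 429 and 442 CPM in APOE3S/S amyloid libraries, against 233, 269 and 239 CPM in APOE3 amyloid libraries. H2-K1, a classical class I heavy chain, was abundant and differed less, with 6054, 5915 and 5888 CPM in APOE3S/S amyloid libraries, against 4565, 4437 and 4294 CPM in APOE3 amyloid libraries (fold change 0.43 ± 0.19, adjusted p = 0.40, 0.049 and 0.0082). The H2 genes are related in sequence, and whether tags were shared among them was not tested. Canx, a general chaperone of the list, had 386, 392 and 413 CPM in APOE3S/S amyloid libraries, against 402, 385 and 401 CPM in APOE3 amyloid libraries.

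Of 12 tested MHC class II and co-stimulation genes, 2 were called higher in the 6-library fit and 5 in the 5-library fit (1.79% and 6.7% of all genes). Cd86, a co-stimulatory ligand for T cells (16:36603869-36666081), had 70.1, 75.7 and 78.1 CPM in APOE3S/S amyloid libraries, against 54.7, 55.2 and 47.5 CPM in APOE3 amyloid libraries, a fold change of 0.51 ± 0.10 (adjusted p = 0.30, 0.032 and 0.015). Cd74, the invariant chain, had 51.0, 53.0 and 43.2 CPM in APOE3S/S amyloid libraries, against 27.8, 30.2 and 28.3 CPM in APOE3 amyloid libraries (edgeR adjusted p = 0.38, 0.020 and 0.0026). The class II chain H2-Ab1 was near the floor in all 6 libraries, at 0.294, 0.366 and 2.94 CPM in APOE3S/S amyloid libraries, against 0.429, 0.568 and 0.801 CPM in APOE3 amyloid libraries.

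Cytokines and NF-kB targets were higher in the libraries labelled APOE3S/S amyloid, but much of the size came from the library labelled APOE3S/S amyloid 9. The median over 47 tested members was 0.76 with that library and 0.30 without it, and 46 members were positive with it and 33 without it. The 6-library fit called 8 of 45 members higher (1.79% of all genes) and 0 lower: Pim1, Il6, Ccl4, Ccl2, Ccl7, Ccl9, Saa3 and Socs3. The 5-library fit called 14 of 45 higher (6.7% of all genes) and 0 lower. Groups did not overlap upward in 18 of 47, against 14.1% of all genes. The NF-kB motif, searched on both strands of the upstream 200 bases, was in 11 of 35 promoters of the list (31.4%), against 150 of all 9941 (1.51%). The list was made to hold NF-kB targets, so this share describes the list and not the genotype difference.

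Pim1, a kinase induced by cytokine receptors (17:29490753-29496112), had 97.6, 108 and 110 CPM in APOE3S/S amyloid libraries, against 54.2, 66.8 and 50.6 CPM in APOE3 amyloid libraries. The libraries of each genotype lay close together, and Pim1 had the smallest p of all higher genes of at least 5 CPM, with a fold change of 0.88 ± 0.14 (adjusted p = 0.30, 0.020 and 0.0068). Ccl4, a chemokine of macrophages (11:83662584-83664683), had 56.0, 48.8 and 42.3 CPM in APOE3S/S amyloid libraries, against 25.3, 20.4 and 20.0 CPM in APOE3 amyloid libraries. Its fold change was 1.16 ± 0.23 (adjusted p = 0.30, 0.020 and 0.0026). Ccl2, the monocyte chemoattractant MCP-1 (11:82035571-82037453), had 20.0, 46.9 and 55.1 CPM in APOE3S/S amyloid libraries, against 5.31, 7.54 and 5.36 CPM in APOE3 amyloid libraries. The log2 fold change was 2.74 ± 0.61 (adjusted p = 0.33, 0.020 and 0.0059), and both Ccl4 and Ccl2 kept every APOE3S/S library above every APOE3 library.

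Il6, an inflammatory cytokine (5:30013114-30019981), was low but separated, with 1.18, 1.47 and 4.02 CPM in APOE3S/S amyloid libraries, against 0.161, 0.206 and 0.185 CPM in APOE3 amyloid libraries. Its fold change was 3.54 ± 0.61, or 2.80 without the library labelled APOE3S/S amyloid 9 (adjusted p = 0.30, 0.036 and 0.012). The APOE3 levels were near the floor and rest on few counts, which limits the size of this fold change. Il1b, the precursor of interleukin 1 beta (2:129364570-129371139), had 68.5, 59.3 and 155 CPM in APOE3S/S amyloid libraries, against 32.1, 39.4 and 22.4 CPM in APOE3 amyloid libraries. It was called in the 5-library fit and not in the 6-library fit (adjusted p = 0.014 and 0.070). Tnf did not separate, with 20.0, 28.1 and 57.3 CPM in APOE3S/S amyloid libraries, against 29.0, 20.3 and 25.6 CPM in APOE3 amyloid libraries. The log2 fold change was 0.50 ± 0.38, and -0.05 without the library labelled APOE3S/S amyloid 9.

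Several inflammatory genes were far higher in the library labelled APOE3S/S amyloid 9 than in the other libraries of its label. Cxcl3, a neutrophil chemoattractant, had 5.18, 7.08 and 64.6 CPM in the libraries labelled APOE3S/S amyloid 7, 8 and 9, against 3.60, 5.21 and 4.50 CPM in APOE3 amyloid libraries, while APOE3 tau libraries had 67.5, 112 and 159 CPM. Acod1, which makes itaconate in activated macrophages, had 41.0, 93.8 and 398 CPM in the libraries labelled APOE3S/S amyloid, against 48.0, 50.9 and 46.1 CPM in APOE3 amyloid libraries, and 309, 368 and 457 CPM in APOE3 tau libraries. Lcn2, an iron-sequestering acute phase protein, had 3.06, 4.46 and 31.8 CPM in the libraries labelled APOE3S/S amyloid, against 3.43, 5.47 and 3.02 CPM in APOE3 amyloid libraries, and 33.1, 35.3 and 49.7 CPM in APOE3 tau libraries. In each of the 3 genes that library was near the APOE3 tau libraries and APOE3S/S amyloid 7 was near the APOE3 amyloid libraries. Their fold changes of 2.53, 1.88 and 1.71 became 0.47, 0.49 and -0.08 without the library labelled APOE3S/S amyloid 9. All 3 are among the 10 genes that lay highest in that library over the mean of 7 and 8. The fall without it therefore follows from how they were chosen.

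**Figure D3:**
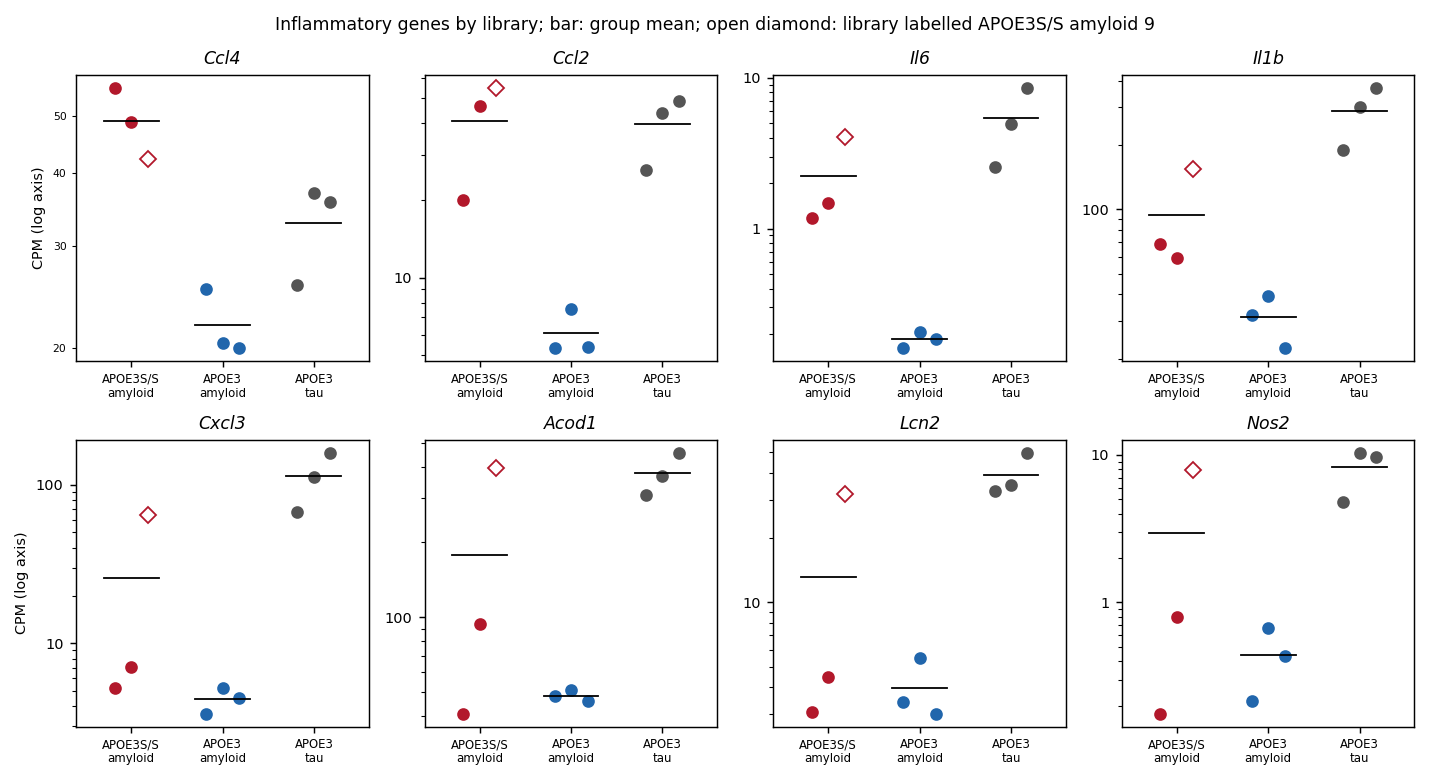
CPM (log axis) of 8 inflammatory genes by library in APOE3S/S amyloid, APOE3 amyloid and APOE3 tau groups, with bars for group means and an open diamond for the library labelled APOE3S/S amyloid 9. Ccl4 and Ccl2 separate the amyloid groups in all libraries, while Cxcl3, Acod1 and Lcn2 are high in the library labelled APOE3S/S amyloid 9 and in the APOE3 tau libraries.

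Beyond inflammation, the 10 genes of at least 5 CPM that lay highest in the library labelled APOE3S/S amyloid 9 over the mean of 7 and 8 included Serpinb2, Slc7a11 and Ptges, and the 10 lowest included Hpgd. They are given as a description, since the difference chose them, and their levels in APOE3S/S tau libraries are not given. Serpinb2, an inhibitor of plasminogen activators, had 7.65, 11.2 and 111 CPM in the libraries labelled APOE3S/S amyloid 7, 8 and 9, against 7.14, 7.69 and 3.76 CPM in APOE3 amyloid libraries, and 98.4, 159 and 210.4 CPM in APOE3 tau libraries. Slc7a11, the cystine importer, had 23.0, 37.7 and 195 CPM in the libraries labelled APOE3S/S amyloid, against 51.8, 45.5 and 35.3 CPM in APOE3 amyloid libraries, and 217, 204 and 297 CPM in APOE3 tau libraries. Hpgd, which degrades prostaglandins, had 102, 54.3 and 11.5 CPM in the libraries labelled APOE3S/S amyloid, against 105, 84.2 and 80.9 CPM in APOE3 amyloid libraries, and 20.8, 19.7 and 17.8 CPM in APOE3 tau libraries. For all 3 genes the library labelled APOE3S/S amyloid 9 lay closer to the APOE3 tau libraries than to the other libraries of its label.

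Cholesterol and fatty acid synthesis genes were lower in APOE3S/S amyloid libraries. The median over 35 tested members was -0.41, or -0.33 without the library labelled APOE3S/S amyloid 9, and 31 of 35 did not have a positive value. The 6-library fit called 6 members lower (0.925% of all genes were called lower) and 0 higher: Acaca, Fasn, Lss, Dhcr7, Fdft1 and Hsd17b7. The 5-library fit called 12 lower (5.14% of all genes) and 0 higher, adding Hmgcs1, Stard4, Sc5d, Insig1, Idi1 and Cyp51. The SREBP motif, searched on both strands, was in the upstream 200 bases of 1 of 25 promoters of the list (4.0%), against 104 of all 9941 (1.05%). In 19 of 35 every APOE3S/S library was below every APOE3 library, which held for 13.4% of all genes. The median difference between the genotype effects with amyloid and untreated was -0.57, with an untreated median of 0.13, and no member was called in that test.

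In fatty acid synthesis, Acaca encodes acetyl-CoA carboxylase 1, which makes malonyl-CoA. Acaca (11:84129672-84401651) had 66.1, 67.1 and 74.5 CPM in APOE3S/S amyloid libraries, against 95.7, 109 and 113 CPM in APOE3 amyloid libraries, averaging 69.2 ± 4.56 in APOE3S/S and 106 ± 9.12 in APOE3 (SD, n = 3 each). The groups were well apart, the fold change was -0.61 ± 0.12 and adjusted p was 0.30, 0.023 and 0.0059. Fasn, the fatty acid synthase (11:120805846-120824547), had 87.7, 93.9 and 88.3 CPM in APOE3S/S amyloid libraries, against 123, 146 and 161 CPM in APOE3 amyloid libraries. Its fold change was -0.67 ± 0.20 (adjusted p = 0.38, 0.028 and 0.012). Untreated, Fasn had 168 and 90.9 CPM in APOE3S/S libraries, against 106, 132 and 134 CPM in APOE3 libraries, with overlap. Mlxipl, the glucose-sensing factor ChREBP that induces both genes in liver (5:135089890-135138382), had 10.2, 12.0 and 9.07 CPM in APOE3S/S amyloid libraries, against 18.2, 20.9 and 22.5 CPM in APOE3 amyloid libraries. The log2 fold change was -0.97 ± 0.17 (edgeR adjusted p = 0.30, 0.020 and 0.0084).

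In cholesterol synthesis, Lss, which closes the sterol ring, had 22.7, 24.9 and 25.3 CPM in APOE3S/S amyloid libraries, against 32.9, 34.3 and 37.9 CPM in APOE3 amyloid libraries, a fold change of -0.53 ± 0.15 (adjusted p = 0.031 and 0.011 in the 6- and 5-library fits). Fdft1, squalene synthase, had 23.5, 25.6 and 19.9 CPM in APOE3S/S amyloid libraries, against 32.8, 37.2 and 37.4 CPM in APOE3 amyloid libraries (adjusted p = 0.033 and 0.012). Dhcr7, which catalyses the last step of cholesterol synthesis, had 44.8, 48.4 and 45.8 CPM in APOE3S/S amyloid libraries, against 56.6, 63.5 and 63.0 CPM in APOE3 amyloid libraries (adjusted p = 0.041 and 0.024). All 3 enzymes were lower in every APOE3S/S library. Srebf2, the factor that drives the pathway, had 192, 203 and 191 CPM in APOE3S/S amyloid libraries, against 217, 227 and 230.3 CPM in APOE3 amyloid libraries, a fold change of -0.20 ± 0.10. Srebf1 had 127, 127 and 119 CPM in APOE3S/S amyloid libraries, against 112, 125 and 122 CPM in APOE3 amyloid libraries, and overlapped. Of the members with a positive value, Acss2 and Me1 were highest in the library labelled APOE3S/S amyloid 9. Acss2, which makes acetyl-CoA from acetate, had 11.4, 14.8 and 34.1 CPM in the libraries labelled APOE3S/S amyloid, against 11.1, 12.7 and 10.8 CPM in APOE3 amyloid libraries.

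**Figure D4:**
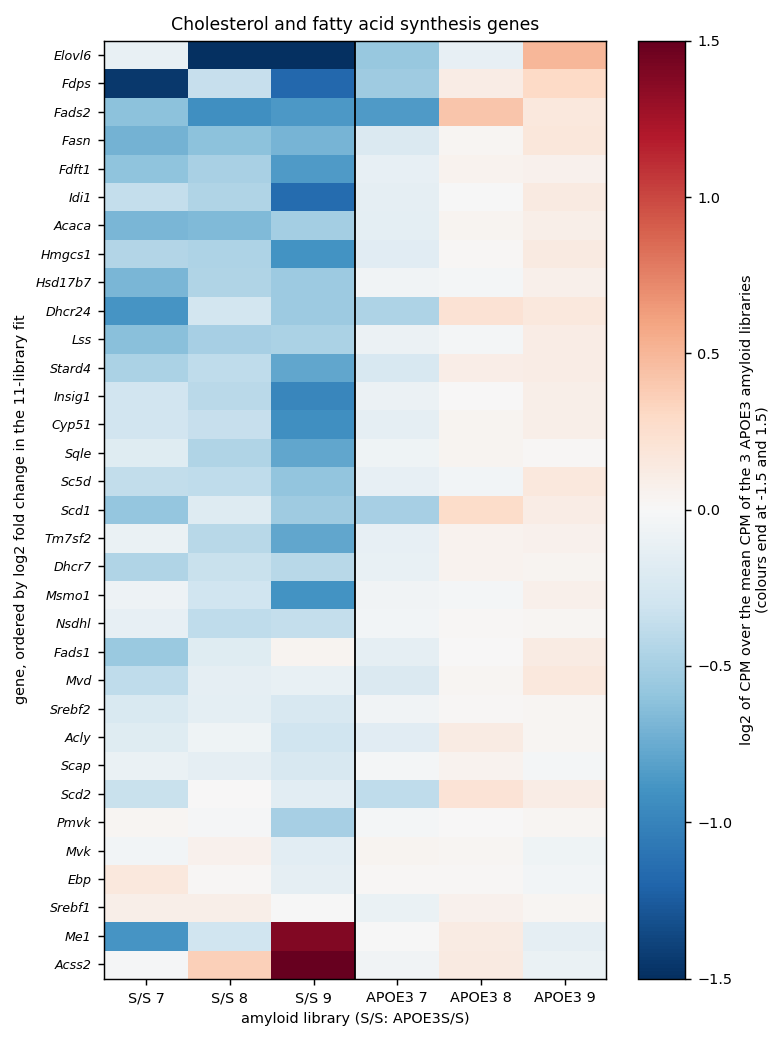
Log2 ratio of CPM in each of the 6 amyloid libraries to the mean of the 3 APOE3 amyloid libraries, for cholesterol and fatty acid synthesis genes ordered by their 11-library fold change, with APOE3S/S libraries on the left. Most genes are below the APOE3 mean in all 3 APOE3S/S libraries, and Acss2 and Me1 are above it in the library labelled APOE3S/S amyloid 9.

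Genes of cholesterol handling downstream of synthesis had values on both sides of 0. Over 28 tested LXR and PPAR genes of lipid handling the median was -0.05, and the 6-library fit called 1 lower and 0 higher (0.925% and 1.79% of all genes). The 5-library fit called 4 higher and 4 lower (6.7% and 5.14% of all genes). The gene called in the 6-library fit was Npc1, which exports cholesterol from lysosomes, with 258, 251 and 251 CPM in APOE3S/S amyloid libraries, against 350.2, 322 and 343 CPM in APOE3 amyloid libraries, a fold change of -0.42 ± 0.17 (adjusted p = 0.032 and 0.012 in the 6- and 5-library fits). Abca1, the cholesterol exporter that loads apolipoprotein E, had 655, 796 and 903 CPM in APOE3S/S amyloid libraries, against 849, 806 and 778 CPM in APOE3 amyloid libraries, and the groups overlapped.

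Genes of the disease-associated microglia state had a median of -0.02 over 34 tested members, or 0.13 without the library labelled APOE3S/S amyloid 9. The 6-library fit called 3 higher and 0 lower, and the 5-library fit 9 higher and 1 lower, where 1.79% and 6.7% of all genes were called higher in these fits. Ccl6, a chemokine, had 1346, 1327 and 1321 CPM in APOE3S/S amyloid libraries, against 717, 926 and 811 CPM in APOE3 amyloid libraries (adjusted p = 0.025 and 0.0080 in the 6- and 5-library fits). Cd52, a small surface glycoprotein, had 307, 325 and 330.2 CPM in APOE3S/S amyloid libraries, against 204, 218 and 186 CPM in APOE3 amyloid libraries (adjusted p = 0.020 and 0.0059). Several hallmark genes of the state differed more among APOE3S/S libraries than between genotypes. Trem2, the lipid and amyloid receptor of microglia, had 985, 708 and 378 CPM in the libraries labelled APOE3S/S amyloid, against 805, 718 and 739 CPM in APOE3 amyloid libraries. Its fold change was -0.13 ± 0.26, and 0.17 without the library labelled APOE3S/S amyloid 9. Spp1, osteopontin, had 9332, 6315 and 2221 CPM in the libraries labelled APOE3S/S amyloid, against 5561, 4080.4 and 4068 CPM in APOE3 amyloid libraries, and was called higher in the 5-library fit alone (adjusted p = 0.027). The log2 fold change was 0.38 ± 0.41, and -0.10 without APOE3S/S amyloid 7. Gpnmb had 9951, 8598 and 5523 CPM in the libraries labelled APOE3S/S amyloid, against 9415, 8195 and 8835 CPM in APOE3 amyloid libraries. In Trem2, Spp1 and Gpnmb the library labelled APOE3S/S amyloid 9 was the lowest of the 6.

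Homeostatic microglia genes had a median of -0.20 over 28 tested members, or -0.17 without the library labelled APOE3S/S amyloid 9. The 6-library fit called 2 lower and 0 higher, and the 5-library fit 8 lower and 1 higher, where 0.925% and 5.14% of all genes were called lower in these fits. Mef2a, a transcription factor of the microglial programme, had 199, 222 and 202 CPM in APOE3S/S amyloid libraries, against 286, 275 and 293 CPM in APOE3 amyloid libraries, a fold change of -0.45 ± 0.12 (adjusted p = 0.38, 0.032 and 0.013). Tgfbr1, a receptor of the TGF-beta signal that maintains microglia, had 171, 172 and 197 CPM in APOE3S/S amyloid libraries, against 251, 226 and 251 CPM in APOE3 amyloid libraries (adjusted p = 0.049 and 0.0089 in the 6- and 5-library fits). The purinergic receptor P2ry12 did not separate, with 22.2, 31.4 and 29.4 CPM in APOE3S/S amyloid libraries, against 24.2, 23.6 and 23.5 CPM in APOE3 amyloid libraries. Tmem119 was low in all 6, at 1.41, 1.95 and 4.20 CPM in APOE3S/S amyloid libraries, against 2.90, 1.96 and 1.60 CPM in APOE3 amyloid libraries. Aif1, which encodes the microglial marker IBA1, was called higher in the 6-library fit, with 97.5, 126 and 117 CPM in APOE3S/S amyloid libraries, against 68.9, 66.8 and 60.4 CPM in APOE3 amyloid libraries (adjusted p = 0.020). Untreated, Aif1 had 25.4 and 106 CPM in APOE3S/S untreated 2 and 3, against 32.2, 27.3 and 22.1 CPM in APOE3 libraries.

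Of 32 tested microglial Alzheimer risk genes, 2 were called higher and 1 lower in the 6-library fit (1.79% and 0.925% of all genes), with a median of -0.07. Scimp, an adaptor of Toll-like receptor signalling, had 9.48, 12.6 and 13.3 CPM in APOE3S/S amyloid libraries, against 4.35, 2.32 and 3.02 CPM in APOE3 amyloid libraries, a fold change of 1.87 ± 0.40 (adjusted p = 0.33, 0.020 and 0.0078). Ms4a6d, of the MS4A membrane protein cluster, had 604, 674 and 874 CPM in APOE3S/S amyloid libraries, against 387, 414 and 352 CPM in APOE3 amyloid libraries (adjusted p = 0.029 and 0.0047 in the 6- and 5-library fits). Adam10, a protease that cleaves the amyloid precursor and TREM2, was lower, with 292, 310.5 and 316 CPM in APOE3S/S amyloid libraries, against 377, 400.3 and 412 CPM in APOE3 amyloid libraries (adjusted p = 0.049 and 0.016). Cd33, an inhibitory receptor, had 51.7, 58.6 and 97.3 CPM in the libraries labelled APOE3S/S amyloid, against 93.4, 97.2 and 103 CPM in APOE3 amyloid libraries, and was called lower in the 5-library fit alone (adjusted p = 0.0035, and 0.23 in the 6-library fit).

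Tspo, the mitochondrial membrane protein used as an imaging target of neuroinflammation, had 390.1, 439 and 435 CPM in APOE3S/S amyloid libraries, against 240.2, 254 and 229 CPM in APOE3 amyloid libraries. The groups did not overlap, and the fold change was 0.81 ± 0.25 (adjusted p = 0.38, 0.020 and 0.0035). Tspo averaged 421 ± 27.2 CPM in APOE3S/S and 241 ± 12.3 CPM in APOE3 (SD, n = 3 each). Untreated, Tspo had 170.5 and 414 CPM in APOE3S/S untreated 2 and 3, against 184, 164 and 125 CPM in APOE3 libraries.

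The receptors of APOE and tau and the enzymes of heparan sulfate bear on the variant, since it alters heparan sulfate binding. Of 36 in the 6-library fit, 1 was called higher and 2 lower (1.79% and 0.925% of all genes). Of 37 in the 5-library fit, 4 were called higher and 7 lower (6.7% and 5.14% of all genes), and the median over 39 in the 11-library fit was -0.10. Sort1, sortilin, which binds APOE, had 405, 389 and 449 CPM in APOE3S/S amyloid libraries, against 543, 618 and 624 CPM in APOE3 amyloid libraries, a fold change of -0.52 ± 0.17 (adjusted p = 0.037 and 0.0078 in the 6- and 5-library fits). Lrp6, a co-receptor of Wnt signals, had 169, 196 and 169.7 CPM in APOE3S/S amyloid libraries, against 238, 250.3 and 245 CPM in APOE3 amyloid libraries (adjusted p = 0.039 and 0.019). Sdc4, a heparan sulfate proteoglycan, was higher, with 43.3, 41.0 and 44.7 CPM in APOE3S/S amyloid libraries, against 34.3, 33.3 and 29.5 CPM in APOE3 amyloid libraries (adjusted p = 0.049 and 0.030). Lrp1, a receptor for both APOE and tau, had 1202, 1419 and 1289.9 CPM in APOE3S/S amyloid libraries, against 1726, 1604 and 1718 CPM in APOE3 amyloid libraries, and was called lower in the 5-library fit but not the 6-library fit (adjusted p = 0.032 and 0.078).

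Of 47 tested lysosome and phagocytosis genes, 2 were called higher and 0 lower in the 6-library fit, and 8 higher and 2 lower in the 5-library fit, with a median of -0.01. The shares of all genes called higher in these fits were 1.79% and 6.7%. One of the genes called in the 6-library fit was Fcgr1, the high-affinity IgG receptor, which had 625, 798 and 675 CPM in APOE3S/S amyloid libraries, against 398, 402 and 349.8 CPM in APOE3 amyloid libraries (fold change 0.87 ± 0.28, adjusted p = 0.020 in the 6-library fit). The other was Ctsc, a protease-activating protease, with 1477, 1841 and 1823 CPM in APOE3S/S amyloid libraries, against 1093, 1182 and 1065 CPM in APOE3 amyloid libraries (adjusted p = 0.036). Untreated, Fcgr1 had 226 and 605 CPM in APOE3S/S untreated 2 and 3, against 214, 227 and 154 CPM in APOE3 libraries. Ctsc had 783 and 1354 CPM in these APOE3S/S untreated libraries, against 706, 833 and 544 CPM in APOE3 untreated libraries. Of 18 complement genes in each fit, the 6-library fit called 1 and the 5-library fit 9, all higher (1.79% and 6.7% of all genes), and the median over 19 in the 11-library fit was 0.32. C3, the central component, had 1179, 1824 and 2465 CPM in APOE3S/S amyloid libraries, against 1005, 1072 and 976 CPM in APOE3 amyloid libraries, and was called in the 5-library fit but not the 6-library fit (adjusted p = 0.045 and 0.098).

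Respiratory chain and ribosomal protein genes had small positive values. Of 30 tested oxidative phosphorylation genes, 29 had positive values with a median of 0.24, and 1 was called in the 6-library fit and 14 in the 5-library fit, all higher (1.79% and 6.7% of all genes). Cycs, cytochrome c, had 53.4, 61.8 and 73.0 CPM in APOE3S/S amyloid libraries, against 40.8, 39.5 and 37.9 CPM in APOE3 amyloid libraries (fold change 0.67 ± 0.14, adjusted p = 0.30, 0.034 and 0.0096). Cytosolic ribosomal protein genes had a median of 0.16 with the library labelled APOE3S/S amyloid 9 and 0.30 without it. Of 35, 5 were called higher in the 5-library fit and 0 in the 6-library fit (6.7% and 1.79% of all genes). Of 34 tested NRF2 and antioxidant genes, 28 had positive values with the library labelled APOE3S/S amyloid 9 and 16 without it, and the median was 0.25 with it and 0.00 without it. Prdx1, a peroxidase, had 1749, 1951 and 3956 CPM in the libraries labelled APOE3S/S amyloid, against 1374, 1373 and 1247 CPM in APOE3 amyloid libraries, so that the library labelled APOE3S/S amyloid 9 was the highest. Unfolded protein and integrated stress response genes had a median of 0.22 over 35 tested. Of 34 in the 6-library fit, 2 were called higher (1.79% of all genes), Atf4 and Nupr1. Nupr1, a stress-induced chromatin protein, had 85.8, 98.9 and 107 CPM in APOE3S/S amyloid libraries, against 59.9, 56.3 and 54.3 CPM in APOE3 amyloid libraries (adjusted p = 0.020). Cell cycle genes had a median of 0.00 over 43 tested, with 1 called higher (1.79% of all genes) and 0 lower in the 6-library fit.

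**Figure D5:**
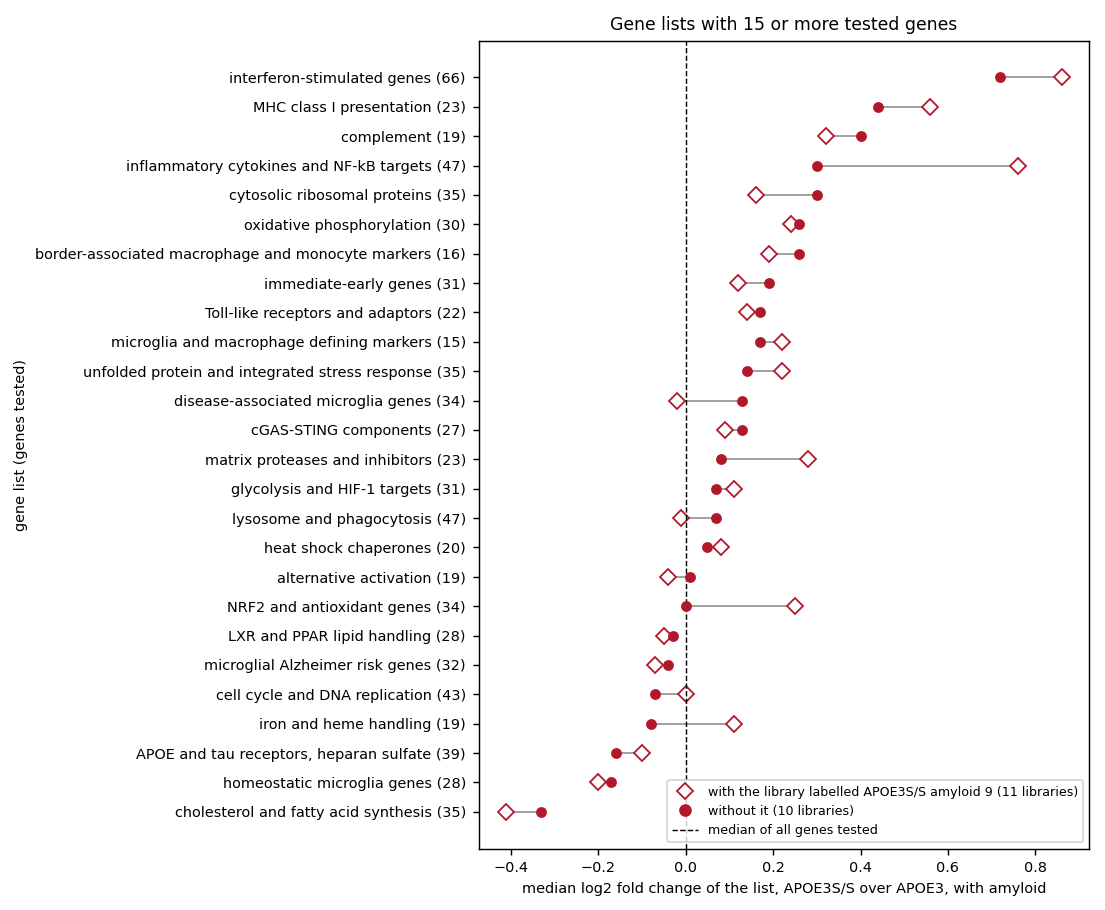
Median log2 fold change, APOE3S/S amyloid over APOE3 amyloid, of each gene list with at least 15 tested members, with an open diamond for all 11 libraries, a filled circle for the 10 without the library labelled APOE3S/S amyloid 9 and a dashed line at the median of all genes. Interferon-stimulated genes lie highest without that library (0.72), the inflammatory list lies at 0.76 with it and 0.30 without it, and cholesterol and fatty acid synthesis lies at -0.33.

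Genes named by p-value rather than by list, at a mean of at least 5 CPM, were not called in the 11-library fit, and a small p also picks genes that vary little within groups. Among the higher ones, Hk3, a hexokinase of myeloid cells, had 289, 297 and 285 CPM in APOE3S/S amyloid libraries, against 221, 199 and 207 CPM in APOE3 amyloid libraries, a fold change of 0.47 ± 0.09. Cd53, a tetraspanin of leukocytes, had 741, 659 and 811 CPM in APOE3S/S amyloid libraries, against 516, 518 and 499 CPM in APOE3 amyloid libraries. Among the lower ones, Creb3l2, a membrane-bound transcription factor of the secretory pathway, had 23.1, 21.1 and 21.6 CPM in APOE3S/S amyloid libraries, against 32.5, 31.6 and 35.1 CPM in APOE3 amyloid libraries, a fold change of -0.59 ± 0.10. Each of these 3 genes kept the groups apart in all 6 libraries. Bhlhe40, a repressor with roles in the circadian clock and in macrophages, had 83.6, 76.9 and 70.1 CPM in APOE3S/S amyloid libraries, against 121, 125 and 139.6 CPM in APOE3 amyloid libraries, a fold change of -0.74. Il17ra, the interleukin 17 receptor, had 36.8, 38.0 and 35.2 CPM in APOE3S/S amyloid libraries, against 47.9, 50.2 and 52.8 CPM in APOE3 amyloid libraries. Mr1, which presents vitamin metabolites to T cells, ran against the other class I-like genes, with 22.9, 20.8 and 25.9 CPM in APOE3S/S amyloid libraries, against 34.6, 38.8 and 42.1 CPM in APOE3 amyloid libraries.

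Among the 120 genes called lower in the 6-library fit, Hgf, hepatocyte growth factor, had 15.5, 17.3 and 15.7 CPM in APOE3S/S amyloid libraries, against 29.0, 29.2 and 28.1 CPM in APOE3 amyloid libraries, a fold change of -0.83. Irs2, an adaptor of the insulin receptor, had 39.4, 31.4 and 21.9 CPM in APOE3S/S amyloid libraries, against 64.0, 59.9 and 56.7 CPM in APOE3 amyloid libraries, a fold change of -0.96. Mmp9, a matrix metalloprotease, was among the higher ones, with 22.1, 29.3 and 58.7 CPM in APOE3S/S amyloid libraries, against 11.1, 12.1 and 11.1 CPM in APOE3 amyloid libraries (adjusted p = 0.047 in the 6-library fit). G530011O06Rik, a transcript annotated on the X chromosome without an assigned function (X:169975043-169978917), had 22.6, 21.4 and 4.80 CPM in the libraries labelled APOE3S/S amyloid, against 2.68, 1.70 and 1.85 CPM in APOE3 amyloid libraries. The library labelled APOE3S/S amyloid 9 was the lowest of its label. This transcript did not separate the genotypes elsewhere, with 5.98 to 18.0 CPM in the 8 APOE3S/S libraries outside the fit, against 2.60 to 7.51 CPM in the 9 APOE3 libraries.

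Tested markers of cell types other than macrophages mostly had negative values. Positive values were seen in 2 of 9 oligodendrocyte lineage, 3 of 12 astrocyte, 0 of 5 neuron, 2 of 14 fibroblast and mural and 2 of 5 endothelial markers. Of 8 oligodendrocyte lineage markers in the 6-library fit, 1 was called higher and 1 lower (1.79% and 0.925% of all genes). The higher one was Cnp, with 119, 150.2 and 133 CPM in APOE3S/S amyloid libraries, against 88.6, 91.2 and 87.5 CPM in APOE3 amyloid libraries (adjusted p = 0.029). The lower one was Cspg4, with 3.71, 2.38 and 3.00 CPM in APOE3S/S amyloid libraries, against 7.51, 7.59 and 6.41 CPM in APOE3 amyloid libraries (adjusted p = 0.028). Col1a1, the collagen of fibroblasts, had 0.353, 0.0611 and 0.300 CPM in APOE3S/S amyloid libraries, against 5.74, 16.1 and 1.97 CPM in APOE3 amyloid libraries, and was called lower in the 6-library fit (adjusted p = 0.039). Vwf, von Willebrand factor of endothelium, had 58.6, 59.9 and 86.8 CPM in APOE3S/S amyloid libraries, against 127, 124 and 150.4 CPM in APOE3 amyloid libraries (adjusted p = 0.032), although the endothelial genes Cldn5, Tek and Tie1 were at 0 in all 6 amyloid libraries. Fibroblast and mural markers summed to 1499 to 1977 CPM in APOE3S/S amyloid libraries, against 1898 to 2110.3 CPM in APOE3 amyloid libraries. Most of that sum was Fn1, which macrophages also express. The median fold change over 14 tested members was -2.0, the lowest of any list. It was -2.26 over 13 members without the library labelled APOE3S/S amyloid 9. The 6-library fit called 1 of 9 lower and the 5-library fit 3 of 12 (0.925% and 5.14% of all genes), and neither called any higher. The part of these cell types in the results above was not tested. Of the border-associated macrophage and monocyte markers, 3 of 16 were called higher in the 6-library fit (1.79% of all genes). Clec12a, an inhibitory lectin of myeloid cells, had 371, 372 and 355 CPM in APOE3S/S amyloid libraries, against 255, 243 and 242 CPM in APOE3 amyloid libraries (adjusted p = 0.020). The part of those cells in the chemokine and interferon values was not tested.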

How the data were processed

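The authors deposited raw read counts per gene symbol in a table of 11 untreated and amyloid libraries and a table with the tau libraries. Per the labels' protocols, RNA was isolated with a Quick-RNA MicroPrep kit and libraries were made with a QuantSeq 3′ forward kit; GRCm38 (mm10) and DESeq2 1.38.3 are named in the submitters' processing notes, but for the aligner and counter, not given in the sources used here, no name can be stated. Of 60976 entries, 6360 without a number, 25 without a name or counts, 153 exact repeats, 27 further entries sharing a symbol and 16 entries of 7 ambiguous symbols were left out, leaving 54420. A further 23 symbols had been turned into dates.

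The deposited counts were tested with edgeR 4.0.16 in R 4.3.3 (TMM scaling, filterByExpr, quasi-likelihood test, Benjamini-Hochberg adjustment over all genes tested), with limma-voom 3.58.1 and DESeq2 1.42.0 as alternatives. The edgeR fits were also run on simulated counts with known changes. Those counts had 1 spread for all genes and no library set apart, so they do not measure error in these libraries. The 4 groups of the main fit left 7 residual degrees of freedom, the 6 amyloid libraries 4 and the 5 libraries 3. CPM are counts per 1000000 of the library total times the TMM factor, and log2 CPM used a prior count of 2. Distances are root mean squares over 14127 genes. Gene coordinates are from GENCODE M21, matched by symbol. Of 7 motifs searched in promoters, 3 are given, by name only because their patterns came from general knowledge and not from the files, and the SREBP one was added after the results were seen. Genes were named where they had the 12 smallest p-values in a direction with an average of 5 CPM or more, or the 3 smallest in a list, or were among the 10 highest and lowest of the library labelled APOE3S/S amyloid 9, or 12 in each direction from the 6-library calls; that last rule, the other list members named, and Gm47283 were chosen after values were seen. The members and all 34 gene lists (881 genes, 790 of them tested) were chosen with earlier results of these data known. Some members of the lists are counted in them and not reported here by name.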

Additional observations from a re-analysis of the deposited data

How the results depend on the processing

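With 11 libraries, 0 genes were called at an adjusted p below 0.05 under RLE scaling, limma-voom, a minimum mean of 10 CPM, all 17 libraries of the name series and the replicate block, with 59 called by DESeq2, 740 without a low-count filter and 352 with the 6 amyloid libraries alone. Leaving out 1 library gave 0 to 111 calls. The difference between the genotype effects gave 76 calls without a filter, and 0 to 3 leaving out 1 library. The untreated comparison gave 491 calls without a filter, 53 by DESeq2, and 0 to 443 leaving out 1 library. In the 6 amyloid libraries DESeq2 called 1001 genes, and leaving out 1 library gave 0 to 1577. In the 5 libraries leaving out 1 more gave 112 to 2696. Equal library numbers did not pair the samples: deviations of same-numbered libraries correlated at 0.15, 0.03 and 0.06. With the replicate block the 6-library fit called 198 genes. The cause of these differences was not tested, other than that each subset holds fewer libraries. Fold changes of single genes that changed sign did so mostly without the library labelled APOE3S/S amyloid 9. Leaving out 1 library at a time, log2 values ran between these limits: Abca1 -0.15 and 0.07, Adam19 -1.36 and 0.62, Apoe -0.32 and 0.21, Canx -0.02 and 0.03, Emp1 -0.52 and 0.54, Gm42793 -0.80 and 0.11, Gpnmb -0.32 and 0.08, H2-Ab1 -0.83 and 1.47, Hmox1 -0.11 and 0.32, Irf8 -0.23 and 0.03, Lcn2 -0.08 and 2.18, Me1 -0.56 and 0.78, Nrcam -1.08 and 0.06, Pde1c -0.81 and 0.32, Ptges -0.17 and 1.58, Ptgs2 -1.03 and 1.22, Slc7a11 -0.54 and 1.40, Spp1 -0.10 and 0.78, Tmem119 -0.35 and 0.51, Tnf -0.05 and 0.78, Trem2 -0.47 and 0.17, Trpm2 -1.03 and 0.21. Canx was -0.01 at a minimum mean of 10 CPM. Adam19 was -0.55 by limma-voom and -0.45 with the replicate block, and Emp1 was -0.22 and -0.18. Of the single-gene and list values, 3853 kept their direction and side of the threshold and 351 became calls in another setting. Levels under about 1 CPM rest on some 20 counts or fewer a library, which limits Ifnb1, Il6, H2-Ab1, Nos2 and Col1a1.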

Other observations

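The median over 31 tested glycolysis and HIF-1 genes was 0.11 (log2), with values between -0.80 and 1.11, and 21 were positive. The 6-library fit called 2 higher and 0 lower, where 1.79% of all genes were called higher, and both encode enzymes of glycolysis. Ldha, lactate dehydrogenase, had 665, 649 and 694 CPM in APOE3S/S amyloid libraries, against 505, 521 and 480.4 CPM in APOE3 amyloid libraries. Pgk1, phosphoglycerate kinase, had 327, 352 and 419 CPM in APOE3S/S amyloid libraries, against 267, 258 and 243 CPM in APOE3 amyloid libraries. In both genes the groups did not overlap (edgeR adjusted p = 0.039 and 0.050 in the 6-library fit). Transcripts of the mitochondrial genome ran the other way, with 2 of 14 positive, a median of -0.17 and 0 called in the 6-library fit. Immediate-early genes had a median of 0.12 over 31 tested. Of 30 in the other fits, 2 were called higher in the 6-library fit and 11 in the 5-library fit, where 1.79% and 6.7% of all genes were. Klf2, a quiescence factor of the list, had 39.3, 40.9 and 37.2 CPM in APOE3S/S amyloid libraries, against 26.7, 30.4 and 30.8 CPM in APOE3 amyloid libraries.

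Of 22 tested Toll-like receptor and adaptor genes 1 was called higher in the 6-library fit (1.79% of all genes). It was Myd88, the shared adaptor, with 91.6, 95.8 and 101 CPM in APOE3S/S amyloid libraries, against 68.4, 75.5 and 71.9 CPM in APOE3 amyloid libraries (adjusted p = 0.036). Matrix proteases and inhibitors had a median of 0.28 over 23 tested, or 0.08 without the library labelled APOE3S/S amyloid 9. The 6-library fit called 1 higher and 1 lower (1.79% and 0.925% of all genes), Mmp9 and Adam10. The 6-library fit called 0 of 17 alternative activation genes, 0 of 18 iron and heme genes and 0 of 19 heat shock chaperones, with 11-library medians of -0.04, 0.11 and 0.08. Slc40a1, the iron exporter ferroportin, had 88.6, 54.3 and 46.8 CPM in APOE3S/S amyloid libraries, against 99.0, 118 and 113 CPM in APOE3 amyloid libraries, and was not called (adjusted p = 0.093). Astrocyte, neuron and oligodendrocyte lineage markers had medians of -0.64, -0.66 and -1.24 over 12, 5 and 9 tested members. Their summed levels were 79.0 to 112, 1.59 to 4.03 and 240.2 to 265 CPM in APOE3S/S amyloid libraries, against 74.5 to 124, 2.65 to 6.61 and 221 to 231 CPM in APOE3 amyloid libraries. The median over the 3 tested granulocyte and lymphocyte markers was -0.68.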
